A study of Homo sapiens with 6 samples.

Results

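Transcripts of 10 integrin subunits were followed in CFPAC-1 cells, an established human line from a pancreatic ductal adenocarcinoma. The 10 genes were chosen by symbol from the 59962 genes of the deposited table, as the alpha subunits ITGA2, ITGA3, ITGA5, ITGA6 and ITGAV and the beta subunits ITGB1, ITGB4, ITGB5, ITGB6 and ITGB8. All 10 were found, and all 10 were among the 16610 genes with at least 1 TPM (an abundance corrected for transcript length and scaled to the same total in every library) in at least 2 libraries. RNA-seq covered 3 groups of 2 libraries each. The control carried a guide RNA against LACZ, a bacterial gene that human cells lack (libraries LACZ_1 and LACZ_2). The other groups carried sgRNA1 (S1_1 and S1_2) or sgRNA3 (S3_1 and S3_2) against SULF2, an extracellular sulfatase that trims heparan sulfate. All 3 groups are the same cell line and are labelled as knockdowns, LACZ included. The labels state neither clone or pool, nor how the guides act, nor whether libraries of a group come from separate cultures, so p-values here reflect the spread between libraries alone, which may be technical.

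Integrins are receptors for the matrix and for neighbouring cells, each built of 1 alpha and 1 beta chain that pair in the cell before reaching the surface. ITGB1 is the common partner of ITGA2, a collagen receptor chain, ITGA3 and ITGA6, laminin receptor chains, and ITGA5, the classical fibronectin receptor chain. ITGB4 pairs with ITGA6 alone and anchors epithelial cells to laminin in hemidesmosomes, through a long cytoplasmic tail that binds plectin. ITGAV pairs with ITGB5, which binds vitronectin, and with ITGB6 and ITGB8, which release active TGF-beta from its latent complex, and it can also pair with ITGB1. In pancreatic ducts and their tumours these receptors are known for holding cells on the basement membrane and for invasion.

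SULF2 (ENSG00000196562, chromosome 20, 47656348 to 47786616 on GRCh38), the targeted gene, was at 45.2% of its LACZ level with sgRNA1 and at 40.1% with sgRNA3, and its libraries did not overlap those of LACZ (limma adjusted p = 0.0338 and 0.0215; lost without single libraries, as given in the closing section). Markers of ductal epithelium (keratins, EPCAM, CDH1, MUC1, SOX9 and the untested CFTR) summed to 9061 to 9234 TPM in LACZ, 8026 to 8208 with sgRNA1 and 8638 to 8684 with sgRNA3. With sgRNA1, 4 of the 8 tested (KRT18, KRT19, CDH1 and SOX9) fell and 0 rose, beside 4.31% of all genes tested that fell. With sgRNA3, 3 (KRT18, KRT19 and SOX9) fell and 0 rose, beside 5.25%. How these marker calls fare with libraries left out or under the other settings was not checked. Markers of acinar and islet cells summed to at most 1.64 TPM, with AMY2A, INS, GCG and SST listed at 0 in every library, and those of endothelium to at most 6.01 TPM, with ERG at 0. Fibroblast markers summed to 80.6 to 82.8 TPM in LACZ, 63.02 to 65.5 with sgRNA1 and 39.6 to 60.4 with sgRNA3, with THY1 at 0 and COL1A1 reaching 74.8 TPM. Leukocyte and platelet markers summed to 117 to 128 TPM in LACZ, 125 to 132 with sgRNA1 and 138 to 142 with sgRNA3. CD68, a lysosomal protein, held up to 107 TPM of these sums. Of the 4 tested, 0 passed with sgRNA1, beside 6.0% of all genes. With sgRNA3, 1 rose and 0 fell, beside 3.84% and 5.25% of all genes, and this call was likewise not checked with libraries left out. In bulk RNA, fewer cells of a kind and less RNA per cell cannot be told apart.

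The 10 subunits spanned a wide range of levels. On the TPM scale, which is per transcript length, ITGB1 (ENSG00000150093, chromosome 10, 32900319 to 33005792) ranked 78 and ITGA3 (ENSG00000005884, chromosome 17, 50055968 to 50090481) 170 among the 16610 genes in LACZ. ITGB1 was at 1667 and 1599 TPM in LACZ, 1710 and 1651 with sgRNA1, and 1668 and 1717 with sgRNA3, and the sgRNA1 libraries overlapped LACZ while both sgRNA3 libraries lay narrowly above it. It supplied 81.6% to 85.7% of the summed TPM of the 5 beta subunits in each library. ITGA3 supplied 69.9% to 74.3% of the summed TPM of the 5 alpha subunits. The order of mean levels in LACZ ran ITGB1, ITGA3, ITGB4, ITGA6, ITGAV, ITGA2, ITGB5, ITGB8, ITGB6 and ITGA5, from 1633 to 9.995 TPM, and no neighbours in that order overlapped between their 2 libraries. With sgRNA1 the order changed at ITGB5 and ITGA2, and with sgRNA3 at ITGB8 and ITGB5, and in each case the libraries of that pair overlapped. Summed alpha transcripts were 1083 ± 13.7 TPM (SD, n = 2) for LACZ, 965 ± 68.1 for sgRNA1 and 1050.2 ± 13.8 for sgRNA3, and summed beta transcripts 1990.4 ± 42.1, 1966 ± 55.5 and 1992 ± 28.96.

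**Figure D1:**
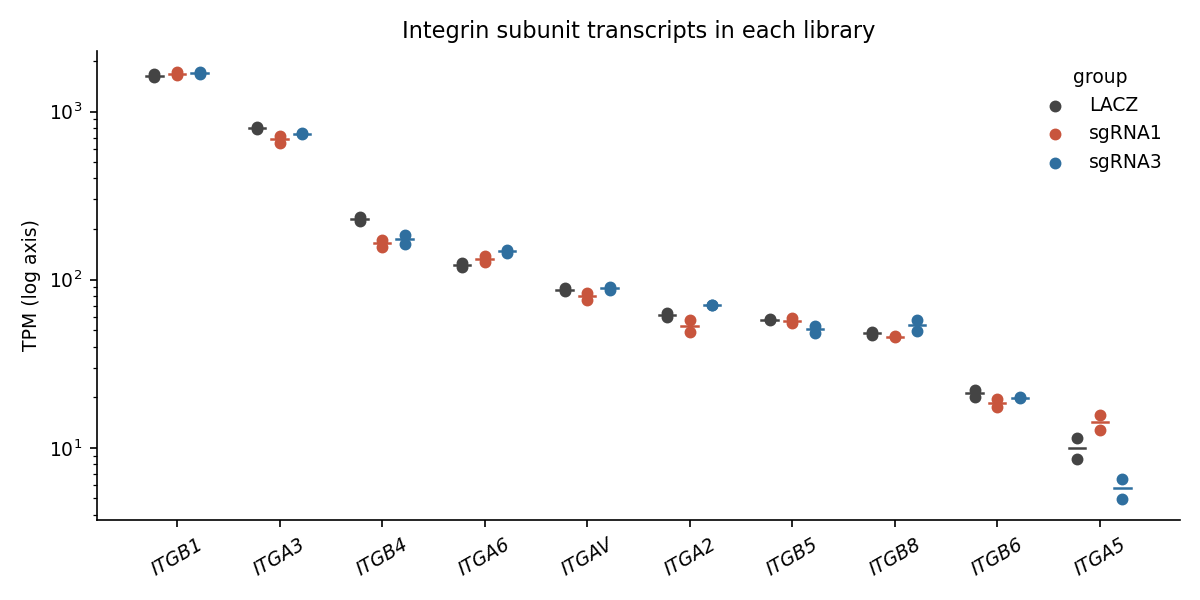
TPM of the 10 integrin subunits (log axis) in each of the 6 libraries, with 2 points per group and a bar at the group mean, ordered by the LACZ mean. ITGB1 and ITGA3 stand above the rest in every group, ITGB4 is lower with either guide, and ITGA5, the lowest, is the gene whose groups lie farthest apart.

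The first question was which subunits changed when SULF2 was targeted. Differences were taken on log2(TPM + 1), which understates changes of low genes, and tested with limma, with Benjamini-Hochberg adjustment over all 16610 genes and a threshold of 0.05. ITGB4 was the only 1 of the 10 subunits that passed, and it fell with both guides; 2.90% of all genes fell and 1.15% rose in both. No subunit passed as higher in either comparison, and at an unadjusted p under 0.05 the same fit held 3 of 10 with sgRNA1 and 4 of 10 with sgRNA3. Across all genes, 6.0% passed with sgRNA1 (4.31% lower and 1.69% higher) and 9.08% with sgRNA3 (5.25% lower and 3.84% higher), so 1 member of 10 is close to the share of all genes. At an unadjusted p under 0.05, the shares of all genes were 24.6% and 28.0%. The libraries did not overlap LACZ in 8 of 10 subunits with sgRNA1, beside 55.0% of all genes, and in 9 of 10 with sgRNA3, beside 59.1%. The median difference of the 10 was -0.10 with sgRNA1 and -0.03 with sgRNA3, beside -0.07 and -0.05 over all genes. Both comparisons share the LACZ libraries.

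**Figure D2:**
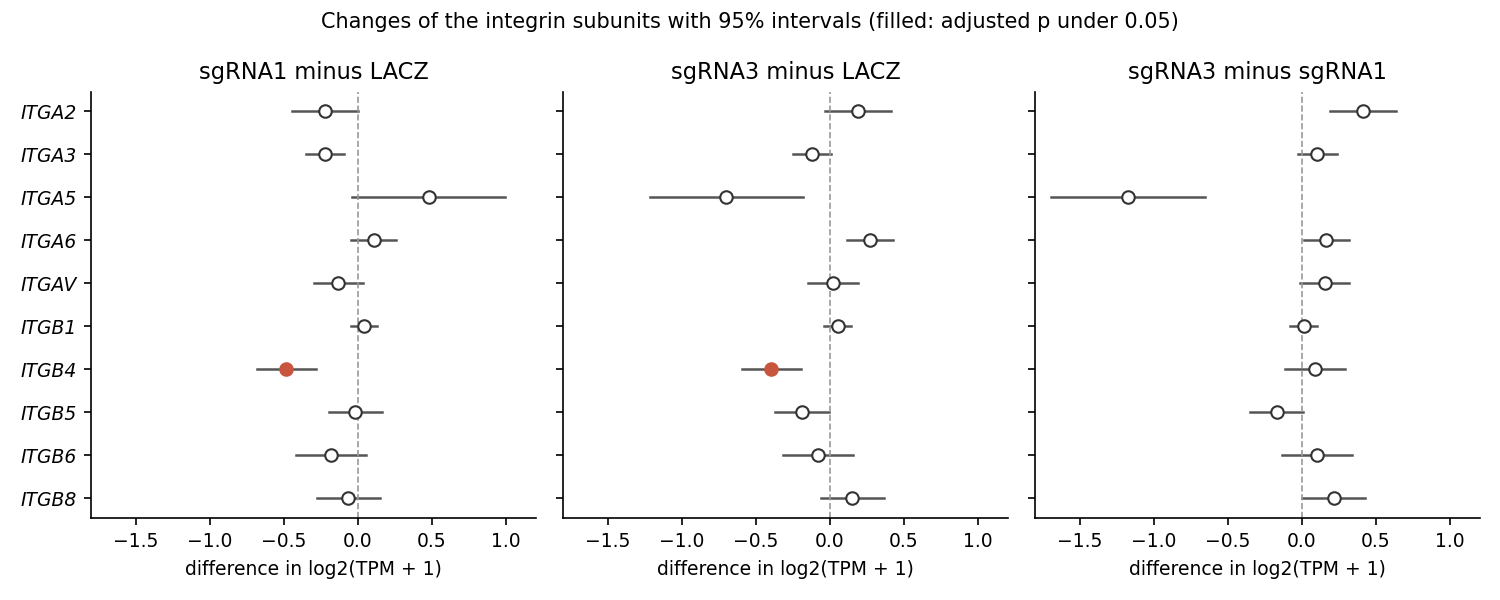
Difference in log2(TPM + 1) of each subunit (points) with its 95% interval from limma, without adjustment for the number of genes (lines), for each guide relative to LACZ and for the guides relative to each other. Filled points have an adjusted p under 0.05: ITGB4 with each guide, and none between the guides.

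ITGB4 (ENSG00000132470, chromosome 17, 75721328 to 75757818, plus strand) was at 223 and 237 TPM in LACZ, 171 and 157 with sgRNA1, and 186 and 164 with sgRNA3. All 4 guide libraries lay below both LACZ libraries, and the guides overlapped each other. The means were 230.2 ± 9.69 TPM (SD, n = 2) for LACZ, 164 ± 10.04 for sgRNA1 and 175 ± 15.3 for sgRNA3, or 71.4% and 76.0% of LACZ. The log2 difference was -0.48 with sgRNA1 (SE 0.079, 95% interval -0.68 to -0.28, limma adjusted p = 0.0338) and -0.40 with sgRNA3 (interval -0.60 to -0.20, adjusted p = 0.0440). Between sgRNA3 and sgRNA1 the difference missed the threshold (0.09, interval -0.11 to 0.29, limma adjusted p = 0.652). Neither call held with any 1 library left out. For sgRNA1 the adjusted p was 0.134 and 0.1555 leaving out LACZ_1 and LACZ_2, 0.0879 and 0.143 leaving out S1_1 and S1_2, and 0.0546 and 0.0547 leaving out S3_1 and S3_2. For sgRNA3 it was 0.137 and 0.178, 0.0705 and 0.0705, and 0.0843 and 0.149, in the same order. The calls were also lost without the low-value filter (adjusted p = 0.0767 and 0.0977), without the intensity trend, with the replicate block and with only the groups compared. These settings change the test and leave the log2 difference as it was, so its sign could not turn. The 3' part of ITGB4 overlaps 6225 bases of GALK1, a galactose-metabolising kinase on the opposite strand. GALK1 was at 17.5 to 21.2 TPM, and without known strandedness the reads of the shared stretch cannot be told apart. The fall in ITGB4 went along with the lower sums of the ductal markers given above, and their part in it was not tested.

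ITGA6 (ENSG00000091409, chromosome 2, 172427354 to 172506282, plus strand), the only alpha chain that ITGB4 uses, did not move with it. ITGA6 was at 126 and 119 TPM in LACZ, 138 and 127 with sgRNA1, and 145 and 151 with sgRNA3. Every guide library was above both LACZ libraries, and the sgRNA3 libraries were the highest. Relative to LACZ, ITGA6 differed by 0.11 on the log2 scale for sgRNA1 (SE 0.061, limma adjusted p = 0.353) and by 0.27 for sgRNA3 (interval 0.12 to 0.42, adjusted p = 0.0567), neither past the threshold. With sgRNA3 it passed under median-of-ratios scaling (log2 difference 0.32, adjusted p = 0.0219) and when only genes of at least 5 TPM were tested (adjusted p = 0.0440). The ratio of ITGB4 to ITGA6 transcripts, in which scaling cancels, was 1.77 and 1.99 in LACZ, 1.25 and 1.242 with sgRNA1, and 1.28 and 1.09 with sgRNA3. All 4 guide libraries had a lower ratio than both controls. ITGB4 held 11.6% of the beta transcripts in LACZ, 8.36% with sgRNA1 and 8.79% with sgRNA3, while ITGA6 held 11.3%, 13.7% and 14.1% of the alpha transcripts. These shares and ratios are given as values, since 2 libraries against 2 cannot reach an exact two-sided permutation p below 0.333.

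**Figure D3:**
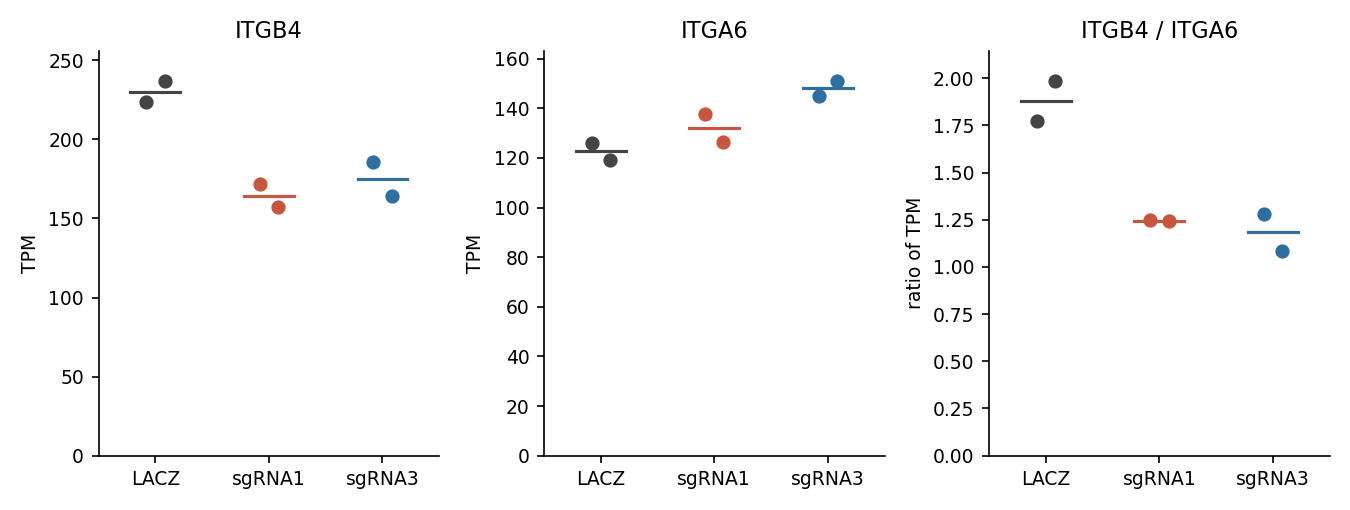
TPM of ITGB4 (left), TPM of its alpha partner ITGA6 (middle) and the ratio of ITGB4 to ITGA6 (right) in each library, with a bar at the group mean and axes from 0. The ratio is 1.77 and 1.99 in LACZ and between 1.09 and 1.28 in the 4 guide libraries.

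A stretch upstream of ITGA6 is shown because ITGA6 and ITGB4 encode 1 receptor and differed in direction, though the ITGA6 differences missed the threshold. Sequences came from RefSeq promoter windows of GRCh38.p14, which reach from 250 bases before to 50 bases after a gene's start. They held 8 of the 10 subunits in 13 windows and not ITGA3 or ITGB4. Capitals mark the only match in the stretch to any motif searched, CACGTG, the E-box bound by MYC and its relatives. Another ITGA6 window, chr2:172427336-172427635, held 3 GGGCGG matches and no E-box, and is not shown. The stretch shown is the plus strand of chr2:172427086-172427335, all of it upstream of the GENCODE 29 transcripts of the gene.
ITGA6: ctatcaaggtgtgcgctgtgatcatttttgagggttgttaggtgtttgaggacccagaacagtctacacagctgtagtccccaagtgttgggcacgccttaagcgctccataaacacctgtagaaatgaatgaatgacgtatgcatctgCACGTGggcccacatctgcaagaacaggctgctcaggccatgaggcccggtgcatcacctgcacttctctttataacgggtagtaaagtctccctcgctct
The E-box was found in 1 of the 13 windows of members and in 7.26% of the 35116 windows of all genes. The other motifs, read on both strands, were GGGCGG (bound by SP1), GGAATG (TEAD), GCGNGGGCG (EGR1, overlapping GGGCGG in ITGB8) and TGANTCA (AP-1). GGGCGG was in 9 of the 13 windows of members, beside 45.0% of all windows, and GGAATG in 2 of 13, beside 14.03%. GCGNGGGCG was in 2 of 13, beside 9.43%, and TGANTCA in 1 of 13, beside 7.71%. A match is a description of the letters and not a bound site.

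The remaining laminin and collagen receptor chains followed. ITGA3 was at 790 and 812 TPM in LACZ, 719 and 654 with sgRNA1, and 733 and 741 with sgRNA3. All 4 guide libraries were below both LACZ libraries, yet neither difference passed (log2 difference -0.22, SE 0.051, limma adjusted p = 0.0706 with sgRNA1, and -0.12, adjusted p = 0.206 with sgRNA3). With sgRNA1 it passed when only genes of at least 5 TPM were tested (adjusted p = 0.0490). ITGA3 held a mean of 74.0% of alpha transcripts in LACZ, 71.1% with sgRNA1 and 70.2% with sgRNA3.

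The libraries of ITGA5 and of ITGA2 did not overlap between the guides. ITGA5 (ENSG00000161638, chromosome 12, 54395261 to 54419460, minus strand) was at 8.54 and 11.5 TPM in LACZ, 15.8 and 12.7 with sgRNA1, and 4.98 and 6.54 with sgRNA3. The 3 groups did not overlap, with sgRNA1 above LACZ and sgRNA3 below it. The log2 difference between the guides was -1.18 (SE 0.21, interval -1.69 to -0.66), with a limma adjusted p of 0.105 that missed the threshold. Against LACZ it was 0.48 with sgRNA1 (adjusted p = 0.234) and -0.70 with sgRNA3 (adjusted p = 0.0985). ITGA2 (ENSG00000164171, chromosome 5, 52989326 to 53094779, plus strand) had the opposite order, at 63.5 and 60.4 TPM in LACZ, 57.4 and 48.7 with sgRNA1, and 70.6 and 70.9 with sgRNA3. The groups again did not overlap, and the difference between the guides was 0.41 (SE 0.088, interval 0.19 to 0.64, limma adjusted p = 0.144). The ratio of ITGA5 to ITGA2 was 0.134 and 0.190 in LACZ, 0.275 and 0.261 with sgRNA1, and 0.0705 and 0.0923 with sgRNA3. Between the guides 0 of the 10 subunits passed in limma and 4 had an unadjusted p under 0.05, beside 0.578% (0.391% higher and 0.187% lower) and 15.4% of all genes, and the libraries of 8 did not overlap, beside 47.0% of all genes.

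**Figure D4:**
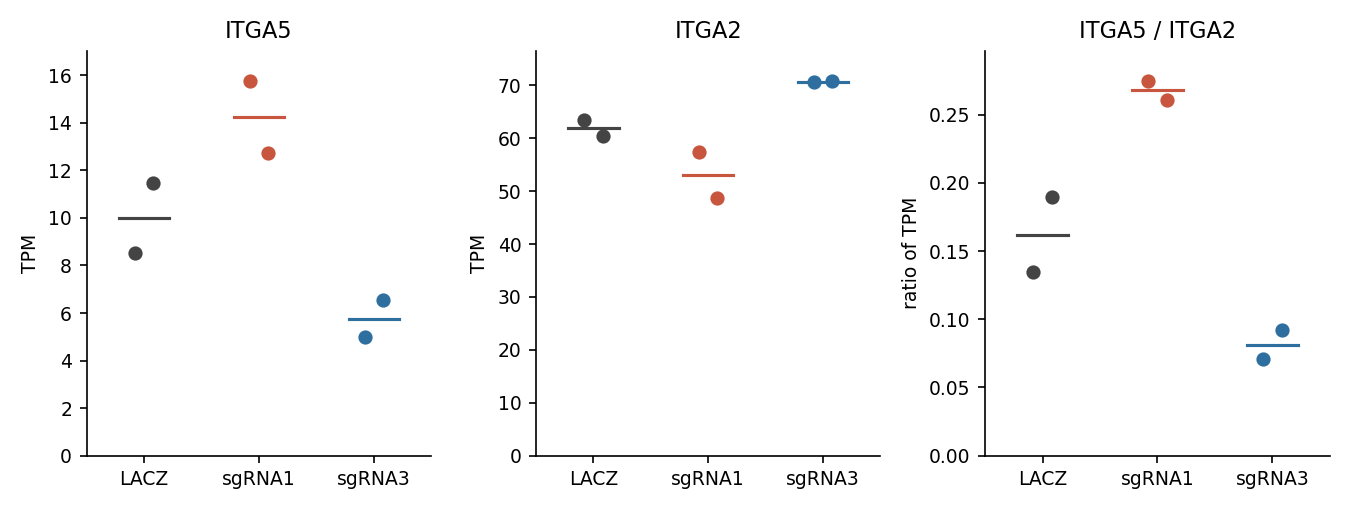
TPM of ITGA5 (left), TPM of ITGA2 (middle) and the ratio of ITGA5 to ITGA2 (right) in each library, with a bar at the group mean and axes from 0. In the ratio the 2 sgRNA1 libraries are the highest, at 0.275 and 0.261, and the 2 sgRNA3 libraries the lowest, at 0.0705 and 0.0923, with LACZ between them.

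Bases at the start of ITGA5 and before that of ITGA2 are shown because these genes differed in opposite directions between the guides. Neither difference passed the test. Capitals mark motif matches: the AP-1 letters in ITGA5, where 30 bases of the minus strand at chr12:54419255-54419284 are given, which span the RefSeq start and lie inside the gene as GENCODE 29 annotates it, and 3 GGGCGG matches in ITGA2, from the plus strand at chr5:52989102-52989325, upstream of every GENCODE 29 transcript of the gene.
ITGA5: tcctccccgcgtTGAGTCAttcgcctctgg
ITGA2: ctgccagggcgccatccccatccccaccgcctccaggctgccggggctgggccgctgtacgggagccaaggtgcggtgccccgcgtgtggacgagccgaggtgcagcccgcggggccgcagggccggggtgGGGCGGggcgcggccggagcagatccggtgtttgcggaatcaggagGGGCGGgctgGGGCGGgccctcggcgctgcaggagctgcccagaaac
In the RefSeq window the ITGA5 match began 6 bases before the start, and ITGA5 was the only subunit with this motif. Outside the bases shown, the ITGA5 window also held GGAATG 82 and GGGCGG 210 bases before the start. The ITGA2 window held a further GGGCGG 9 bases before its start. Windows of the subunits held 31.7% to 78.3% G and C, beside 57.5% over all windows.

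The ITGAV group of receptors showed smaller differences. ITGAV (ENSG00000138448, chromosome 2, 186590065 to 186680901) was at 85.5 and 89.2 TPM in LACZ, 83.8 and 75.7 with sgRNA1, and 87.3 and 90.01 with sgRNA3. The sgRNA1 libraries were the lowest, but the difference did not pass (log2 difference -0.13, interval -0.30 to 0.03, limma adjusted p = 0.294), and with sgRNA3 it was 0.02 (interval -0.14 to 0.19). ITGB5 (ENSG00000082781, chromosome 3, 124761948 to 124901418) was at 58.2 and 57.2 TPM in LACZ, 58.8 and 55.3 with sgRNA1, and 48.1 and 53.1 with sgRNA3. Only the sgRNA3 libraries stood apart, below all others (log2 difference from LACZ -0.19, interval -0.37 to -0.01, limma adjusted p = 0.166).

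Of the chains that release TGF-beta, ITGB8 (ENSG00000105855, chromosome 7, 20330702 to 20415754) was at 49.02 and 47.1 TPM in LACZ, 45.5 and 46.2 with sgRNA1, and 49.6 and 57.5 with sgRNA3. The sgRNA3 libraries were the highest and the sgRNA1 libraries the lowest (log2 difference between the guides 0.22, interval 0.0030 to 0.43, limma adjusted p = 0.322). ITGB6 (ENSG00000115221, chromosome 2, 160099666 to 160200313) was at 22.1 and 20.2 TPM in LACZ, 19.5 and 17.6 with sgRNA1, and 19.8 and 20.1 with sgRNA3. All its guide libraries lay below LACZ, by log2 differences of -0.18 (interval -0.42 to 0.06) and -0.08 (interval -0.32 to 0.16), with limma adjusted p = 0.312 and 0.624. The ratio of ITGB8 to ITGB5 was 0.832 ± 0.0133 (SD, n = 2) for LACZ, 0.805 ± 0.0440 for sgRNA1 and 1.06 ± 0.0350 for sgRNA3. ITGAV amounted to 0.636 to 0.743 of the sum of ITGB5, ITGB6 and ITGB8 in every library. LACZ overlapped each guide in that ratio, and the sgRNA3 libraries (0.743 and 0.689) lay above those of sgRNA1 (0.676 and 0.636).

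ITGB1, the shared partner, had the narrowest interval. Its log2 difference was 0.04 with sgRNA1 (interval -0.05 to 0.13, limma adjusted p = 0.538) and 0.05 with sgRNA3 (interval -0.04 to 0.14, adjusted p = 0.409). Its highest library was 1.07 times its lowest, the smallest such ratio of the 10, and that of ITGA5 was 3.17, the largest. Of 18 annotated genes that overlap a subunit, GALK1 was the only protein-coding one, and the other 17 reached at most 5.35 TPM.

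Of the other 16 human integrin subunits, 7 passed the filter. ITGAE, the alpha chain of an E-cadherin receptor, was the only one that passed a test. ITGAE was at 31.7 and 30.1 TPM in LACZ, 41.96 and 41.2 with sgRNA1, and 28.6 and 29.3 with sgRNA3. The sgRNA1 libraries stood above the others (log2 difference from LACZ 0.42, SE 0.065, limma adjusted p = 0.0297), a call lost when any of the 6 libraries was left out (adjusted p = 0.0767 to 0.133). The difference between the guides missed the threshold (-0.51, adjusted p = 0.0611). ITGB7, its only known beta partner, reached at most 1.03 TPM. ITGB2, the beta chain of leukocyte integrins, was at 19.7 to 26.5 TPM, while its partners ITGAL, ITGAM, ITGAX and ITGAD reached at most 1.18 TPM. ITGB3, another partner of ITGAV, was at 1.16 and 1.33 TPM in LACZ, 4.09 and 2.88 with sgRNA1, and 1.83 and 2.09 with sgRNA3, above LACZ in all 4 guide libraries (log2 difference with sgRNA1 0.99, limma adjusted p = 0.0689). ITGA1, a collagen receptor chain, was at 9.89 to 22.4 TPM, ITGA10 at 3.26 to 4.35, ITGA7 at 0.38 to 2.81 and ITGA4 at 0.80 to 1.29.

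Genes whose profile was most like a subunit were sought for the subunit with the largest difference in each comparison with LACZ, by the smallest Euclidean distance between centred log2(TPM + 1) profiles over the 6 libraries among 12914 protein-coding genes. For ITGB4 they were RNF216, a ubiquitin ligase (distance 0.046), C17orf58 (0.096) and BRAP (0.10). For ITGA5 they were VCAN, a matrix proteoglycan (distance 0.27), TAF1B, a factor of ribosomal RNA transcription (0.28), and TMEM67, a protein of the ciliary transition zone (0.41). VCAN was at 15.9 and 24.2 TPM in LACZ, 34.1 and 24.1 with sgRNA1, and 9.05 and 13.5 with sgRNA3. The sgRNA3 libraries of VCAN were again the lowest, and those of sgRNA1 overlapped LACZ. TAF1B was at 24.03 and 26.2 TPM in LACZ, 36.7 and 34.1 with sgRNA1, and 15.2 and 17 with sgRNA3. TAF1B passed in limma with sgRNA3 and between the guides (adjusted p = 0.0254 for each), and C17orf58 with sgRNA1 (0.0429). These genes were picked for likeness, so their calls are no test of the subunits.

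Genes that work with integrins were counted from 7 lists, in which laminins and CD151 stand in more than 1 list. Of 22 tested matrix ligands, 5 fell and 2 rose with sgRNA1, and 4 fell and 2 rose with sgRNA3 (medians -0.15 and -0.23). Over all genes, 4.31% fell and 1.69% rose with sgRNA1, and 5.25% fell and 3.84% rose with sgRNA3. CCN1, a matricellular ligand of ITGAV and ITGA6 receptors, was at 472 and 465 TPM in LACZ, 263 and 256 with sgRNA1, and 325 and 306 with sgRNA3 (log2 differences -0.85 and -0.57, limma adjusted p = 0.00131 and 0.00426). The guide libraries were well below LACZ and did not overlap each other. SPP1, the ITGAV ligand osteopontin, was at 5.86 and 5.34 TPM in LACZ, 27.02 and 33.9 with sgRNA1, and 10.02 and 8.21 with sgRNA3. It rose with sgRNA1 (log2 difference 2.25, limma adjusted p = 0.00373) and not by the test with sgRNA3 (0.61, adjusted p = 0.0761). Among 7 tested genes of latent TGF-beta, TGFB1 (limma adjusted p = 0.182 with sgRNA1 and 0.721 with sgRNA3) and TGFB3 (0.268 and 0.253) did not pass. TGFB2 fell with both guides from 170.2 TPM to 114 and 105 (limma adjusted p = 0.00420 and 0.00293). Its sgRNA1 call was lost without LACZ_1 (log2 difference -0.57). LTBP3, a latent TGF-beta binding protein, also fell with sgRNA3 (log2 difference -0.50), a call lost leaving out either LACZ or either sgRNA3 library (adjusted p = 0.115 to 0.162).

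Of 7 tested partners of ITGB4 in the hemidesmosome, 0 passed in limma with sgRNA1 (6.0% of all genes did), where 3 had an unadjusted p under 0.05, beside 24.6% of all genes. With sgRNA3, 2 of the 7 rose, beside 3.84% of all genes, and 0 fell, beside 5.25% (medians -0.06 with sgRNA1 and 0.16 with sgRNA3). LAMA3, a chain of the laminin that ITGB4 binds, was at 175 and 183 TPM in LACZ, 201 and 175 with sgRNA1, and 301 and 308 with sgRNA3. The sgRNA3 libraries stood above the rest (log2 difference 0.76, limma adjusted p = 0.00882), and the call was lost leaving out either LACZ or either sgRNA3 library (adjusted p = 0.0625 to 0.0705).

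On the cytoplasmic side few listed genes passed. Of all genes, 6.0% passed with sgRNA1 (4.31% lower and 1.69% higher) and 9.08% with sgRNA3 (5.25% lower and 3.84% higher). Of 13 tested proteins that switch integrins on or off at the tail, FERMT1, the kindlin of epithelia, rose with both guides, from 31.5 TPM to 42.5 and 49.7 (log2 differences 0.42 and 0.64). The sgRNA1 call was lost when any of the 6 libraries was left out (adjusted p = 0.0725 to 0.127), and the sgRNA3 call leaving out either LACZ or either sgRNA3 library (0.0545 to 0.0680). Of 34 tested adaptors and kinases of adhesion complexes, 1 fell with sgRNA1 and 2 with sgRNA3, and 0 rose. FHL2, a LIM-domain adaptor that binds integrin tails, was at 324 and 328 TPM in LACZ, 193 and 185 with sgRNA1, and 168 and 163 with sgRNA3, with all guide libraries far below LACZ (limma adjusted p = 0.00154 and 0.00123). SRC, a kinase activated at adhesions, fell with sgRNA3 from 24.4 to 14.9 TPM, a call lost leaving out either LACZ or either sgRNA3 library (adjusted p = 0.138 to 0.179).

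Membrane partners and traffic proteins completed the lists. Of 18 tested membrane partners, 2 fell and 1 rose with sgRNA1, and 3 fell and 1 rose with sgRNA3, beside the same shares of all genes as for the ligands. SLC3A2, the heavy chain of an amino acid transporter that binds the beta chain tails, was at 310 and 305 TPM in LACZ, 148 and 140 with sgRNA1, and 187 and 196 with sgRNA3. It fell with both guides (log2 differences -1.09 and -0.68, limma adjusted p = 0.000827 and 0.00333) and fell further with sgRNA1 (difference between the guides 0.41, adjusted p = 0.0420), though that test did not hold with any of the 6 libraries left out (0.107 to 0.199). Of 16 tested traffic genes, 4 fell and 0 rose with sgRNA1, and 3 fell and 0 rose with sgRNA3, beside 4.31% of all genes lower with sgRNA1 and 5.25% with sgRNA3. ARF6, which drives recycling of integrins to the surface, fell from 149 TPM to 104 and 114, with calls lost without LACZ_1, S1_1 or S1_2 with sgRNA1 (0.0746, 0.0646 and 0.0819) and with any of the 6 left out for sgRNA3 (0.0508 to 0.117). RAB25 and its effector RAB11FIP1 also fell with both guides, by log2 differences of 0.28 to 0.45, and each of these 4 calls was lost without any of the 6 libraries (limma adjusted p = 0.0616 to 0.178). Of 35 calls among the named partner and other integrin genes, 9 held with each library left out: those of CCN1, FHL2 and SLC3A2 with both guides, of SPP1 with sgRNA1, and of COL1A1 and TGFB2 with sgRNA3.

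**Figure D5:**
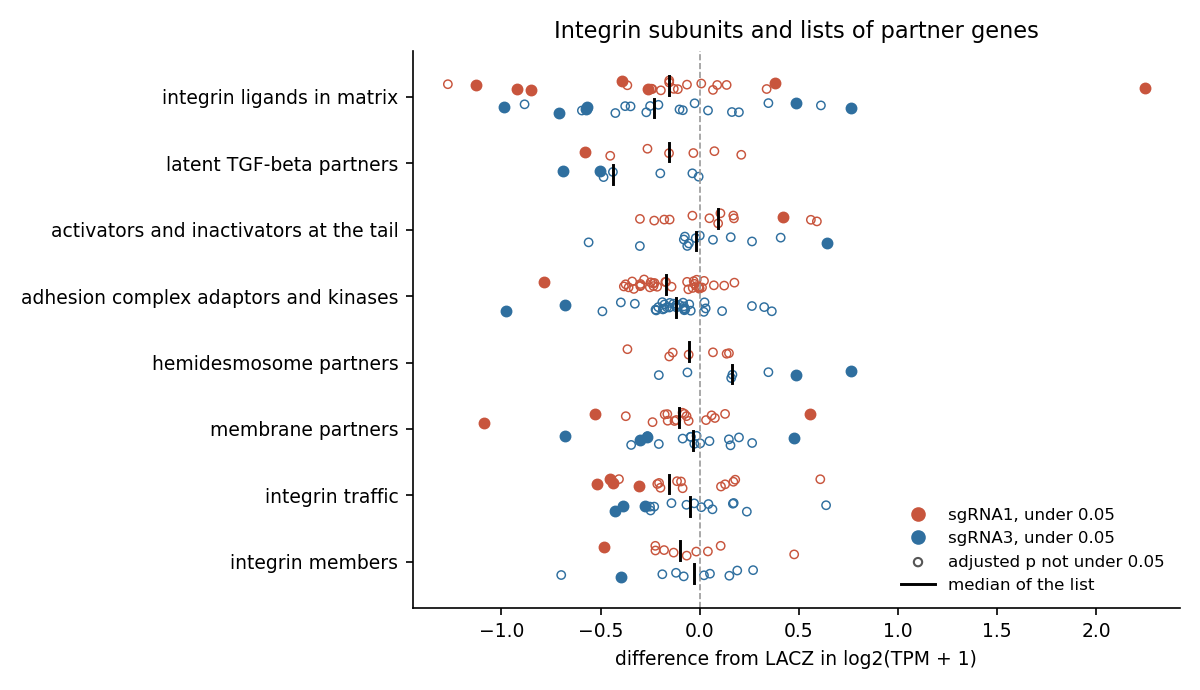
Difference from LACZ in log2(TPM + 1) for every tested gene of the 7 partner lists and for the 10 subunits, with sgRNA1 (upper band of each row) and sgRNA3 (lower band). Filled points have a limma adjusted p under 0.05, open points do not, and black bars mark list medians; SPP1 at 2.25 is the point farthest to the right.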

How the data were processed

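The authors deposited 1 table of TPM values with 2 decimals per gene and library, per the file headers. Build GRCh38 and the tools RSEM 1.3.1, HISAT2 2.1.0 and DESeq2 1.24.0 are named in the submitters' processing notes; annotation release, strandedness and treatment of shared reads are not given there. Titles S1 and S3 correspond to columns H1 and H3, matched by guide and replicate number. TPM keeps no depth, so depth is unknown and counting error cannot be given. Genes with TPM of at least 1 in 2 libraries were tested as log2(TPM + 1) in 1 limma 3.58.1 fit (R 4.3.3) of all 6 libraries with an intensity trend (3 residual and 2.34 prior degrees of freedom), tested on simulated data. TPM are not counts, so no count test was used. Coordinates came from GENCODE 29. The members and lists were chosen with earlier results of these data known. All members and SULF2 were named, with the other integrin subunits that passed the filter and up to 4 genes per list with the smallest p; 1 of these is not reported here. Alternatives were other pseudocounts (0.1, 5), no filter or 5 TPM, 2 other scalings, no trend, a replicate block, only the groups compared, and each library left out.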

Additional observations from a re-analysis of the deposited data

Results flagged for a closer look

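Differences between the guides passed limma's test (adjusted over all genes) for 4 named partner genes and for 0 of the 10 subunits. COL1A1, a collagen chain bound by ITGA2 receptors, was at 57.4 and 55.5 TPM with sgRNA1 and 39.01 and 35.1 with sgRNA3, a difference of sgRNA3 minus sgRNA1 of -0.60 on the log2 scale (limma adjusted p = 0.0463). LAMA3 differed by 0.70 (adjusted p = 0.0393) and SLC3A2 by 0.41 (0.0420), both higher with sgRNA3. SPP1 differed by -1.63 (0.0335), higher with sgRNA1. Each of these 4 tests was lost without any of the 6 libraries (adjusted p = 0.0578 to 0.199).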

How the results depend on the processing

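Integrin calls rest on thresholds that most alternatives did not reach. With sgRNA1 the count of subunits called went from 1 to 0 without the low-value filter, without the intensity trend, with only the groups compared and with the replicate block, to 2 at 5 TPM, and to 0 with any library left out (range 0 to 0). With sgRNA3 it went from 1 to 0 under those same 4 settings and with any library left out (range 0 to 0), and to 2 at 5 TPM and under median-of-ratios scaling. Libraries outside a comparison matter here because the spread is pooled over groups. ITGB4 was lower with each guide in all 15 alternatives (log2 differences -0.55 to -0.40 with sgRNA1 and -0.49 to -0.31 with sgRNA3), and was called in 5 of them for each guide. Several alternatives change only the test and not this difference. Leaving out a library could not turn its sign, since every guide library lay below both LACZ libraries.

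Replicate numbers were checked and do not pair the libraries: differences between replicates correlated at -0.018, 0.0061 and -0.031 between groups, across genes. With the replicate block 377, 561 and 0 genes passed in the 3 comparisons, against 997, 1509 and 96. The other counts over all genes that moved by more than 1.5 times were 542, 785 and 0 with no filter, 295, 557 and 12 with no trend, 311, 833 and 2 with only the groups compared, and 150 to 346, 192 to 852 and 0 to 27 with a library left out. Median-of-ratios scaling turned the split to 610 higher and 578 lower with sgRNA1 and to 1020 and 806 with sgRNA3, and quantile normalization to 442 and 560 with sgRNA1, against 281 and 716, and 637 and 872.

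The SULF2 call with sgRNA1 (-1.09) was lost with no filter, no trend, with only the groups compared and with the replicate block (adjusted p = 0.0768, 0.0675, 0.0825 and 0.0819), under quantile normalization (-0.99, 0.0530) and with each library left out (log2 differences -1.33 to -0.86). With sgRNA3 (-1.23) it was lost with no filter, with no trend and with the block (0.0528, 0.0511 and 0.0583) and without LACZ_1, LACZ_2, S3_1 or S3_2 (-1.33 to -1.14). Between the guides SULF2 turned from -0.14 to 0.093 without S1_2, with a range of -0.38 to 0.093. Signs turned only for differences near 0: ITGB5 with sgRNA1 (0.065 under median-of-ratios scaling, 0.037 under quantile normalization, -0.062 to 0.027 with a library left out, above 0 without S1_2), ITGB8 with sgRNA1 (0.016, median-of-ratios), ITGB1 with sgRNA1 (-0.0045, quantile) and between guides (-0.024, median-of-ratios; with a library left out -0.015 to 0.036, below 0 without S1_2 or S3_2), ITGAV with sgRNA3 (-0.0091 without LACZ_1 and -0.00041 without S3_2, up to 0.052 without LACZ_2) and ITGB4 between guides (-0.0013 without S3_1, up to 0.18 without S3_2). The cause was not tested. With 2 libraries a group and no depth, small differences could not be resolved.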
